A study of Rattus norvegicus with 24 samples.

Results

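The fibrillar collagens of types I and III were followed through 3 identifiers of 32883 in each of 2 tables of rat heart RNA: ENSRNOG00000003897 (Col1a1), ENSRNOG00000011292 (Col1a2) and ENSRNOG00000003357 (Col3a1). They were chosen by identifier. The symbols came with the identifiers and could not be checked, because neither the tables nor the reference pairs these Ensembl numbers with symbols. RNA was sequenced from rats of strain WI in 4 groups of 6 libraries: DAAO left ventricle with septum (LV), CTL LV, DAAO right ventricular free wall (RV) and CTL RV. The 4-digit numbers in the labels were read as 12 animals, each with an LV and an RV library, C_ marking CTL and D_ marking DAAO. DAAO commonly stands for D-amino acid oxidase, which releases hydrogen peroxide as it oxidises D-amino acids and is used to impose oxidative stress on chosen cells. CTL was read as control, and the series title speaks of chemogenetic heart failure. The labels give no age, sex, vector, promoter, dose or treatment time for any group, and do not say whether CTL animals carried the enzyme or received its substrate.

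Type I and type III collagen are the main fibrillar collagens of the heart, secreted mostly by cardiac fibroblasts as procollagens and assembled into fibrils around the muscle cells. Type I is normally built from both the α1(I) chain of Col1a1 and the α2(I) chain of Col1a2, whereas type III consists of α1(III) chains of Col3a1 alone. Type I fibrils are known for tensile stiffness and type III for a finer, more compliant network, and transcripts of both typically accumulate in fibrosing myocardium.

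Recovered reads per library ranged from 13280705 to 23263897, and CTL animals C_7000 and C_7005, set apart by lower numbers than the rest, are included unless stated. Values are the deposited normalized counts, scaled separately for each ventricle, so levels were compared within a ventricle. All DAAO numbers exceed all CTL numbers, so the groups and any unlabelled cohort that follows the numbering cannot be told apart. In bulk tissue, more fibroblasts and more collagen RNA per fibroblast cannot be told apart either. Markers of fibroblasts, muscle cells or other cell types were not counted, since their identifiers could not be matched to symbols.

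Of the 3 identifiers, 2 were abundantly covered and 1 was almost empty. Col1a1 and Col3a1 held between 1217 and 73016 reads in every library, at which the counting error alone is 2.87% to 0.370%. ENSRNOG00000011292, given as Col1a2, held 7 reads in all 24 libraries together. It had 4 reads in the 6 DAAO LV libraries, 3 reads in the 6 CTL LV libraries, and 0 reads in the DAAO RV and CTL RV libraries, and its highest normalized count was 2.03. A count of 0 allows up to 3 reads in a library, or 2.24 to 3.85 normalized counts depending on the library; the limit covers counting error only. Among all identifiers, 35.3% likewise had no read in any RV library. Such values are far below those of Col1a1, whose α1(I) chain normally pairs with α2(I), so this row is called by its identifier below. Why it is nearly empty was not tested, and the read counter and annotation are not known. No fold change is given for it, it did not pass the filter on low values in either ventricle, and the ratio of Col1a1 to Col1a2 was not computed.

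In the left ventricle both covered collagens were about 3-fold higher in DAAO than in CTL, with no overlap between the groups. All DAAO libraries likewise lay above all CTL libraries for 7.58% of genes tested there. Col1a1, the α1(I) chain, had normalized counts from 7280 to 12860 (median 9764) in the 6 DAAO LV libraries and from 1824 to 5240 (median 3690) in the 6 CTL LV libraries. The lowest DAAO library, that of D_7137, stood 1.39-fold above the highest CTL library, that of C_7005. Col1a1 averaged 9925 ± 2049 in DAAO LV and 3495 ± 1155 in CTL LV (SD, n = 6 each). This rise was 2.93-fold (95% confidence interval 2.12 to 4.07), or 1.55 ± 0.22 (SE) on the log2 scale, at a limma adjusted p of 0.000173.

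Col3a1, the single chain of type III collagen, likewise separated the groups of the left ventricle. Its normalized counts ran from 16261 to 30487 (median 22466) in DAAO LV and from 4201 to 10664 (median 8143) in CTL LV. Again D_7137 was the lowest DAAO animal, 1.52-fold above C_7005, the highest CTL animal. The means were 22303 ± 5182 in DAAO LV and 7544 ± 2391 in CTL LV (SD, n = 6 each). The rise was 3.03-fold (95% confidence interval 2.18 to 4.23), or 1.60 ± 0.22 (SE) on the log2 scale, at a limma adjusted p of 0.000155.

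**Figure D1:**
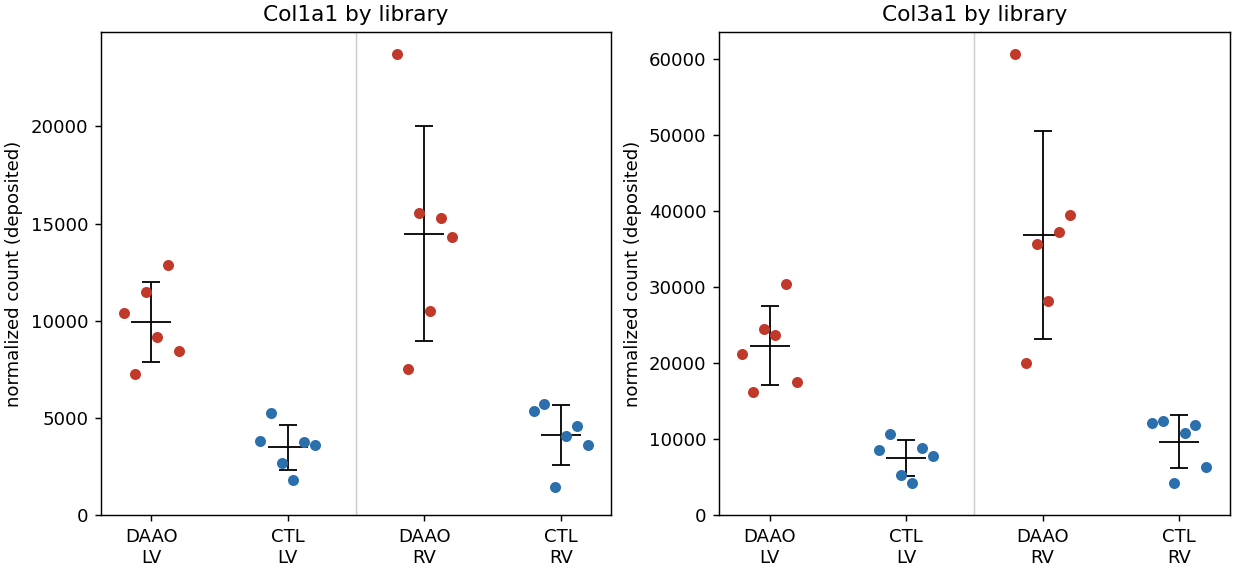
Deposited normalized counts of Col1a1 (left panel) and Col3a1 (right panel) on linear axes that start at 0; each point is a library, the long bar the mean and the error bar the SD of 6 libraries. All DAAO points lie above all CTL points of the same ventricle for both genes. This held for 7.58% of genes tested in LV and 4.46% in RV. D_7135 is the high RV point at 23723 for Col1a1 and 60740 for Col3a1. Levels across ventricles were normalized separately.

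The right ventricle gave the same picture with a wider spread in both groups. The log2 SD of Col1a1 was 0.56 in DAAO RV and 0.73 in CTL RV, against 0.30 in DAAO LV and 0.52 in CTL LV. Col1a1 ran from 7513 to 23723 normalized counts (median 14800) in DAAO RV and from 1440 to 5742 (median 4344) in CTL RV. The groups did not overlap: the lowest DAAO library (D_7137) was 1.31-fold above the highest CTL library (C_7005). Such separation was seen for 4.46% of genes tested in the right ventricle. Col1a1 averaged 14480 ± 5510 in DAAO RV and 4138 ± 1535 in CTL RV (SD, n = 6 each). The gene rose 3.58-fold (95% confidence interval 2.22 to 5.78), or 1.84 ± 0.32 (SE) on the log2 scale, at a limma adjusted p of 0.00147.

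Col3a1 showed the largest of the 4 estimated rises, in the right ventricle. Its normalized counts ran from 20059 to 60740 (median 36488) in DAAO RV and from 4208 to 12394 (median 11365) in CTL RV. The lowest DAAO value, in D_7137, was 1.62-fold above the highest CTL value, in C_7005. Its means were 36915 ± 13688 in DAAO RV and 9640 ± 3493 in CTL RV (SD, n = 6 each). It rose 3.89-fold (95% confidence interval 2.50 to 6.07), or 1.96 ± 0.30 (SE) on the log2 scale, at a limma adjusted p of 0.000847.

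As a share of all recovered reads, which does not use the deposited scaling, the difference was at least as large. Col3a1 took up 0.136% ± 0.0388 of reads in DAAO LV and 0.0401% ± 0.0153 in CTL LV, and 0.263% ± 0.118 in DAAO RV and 0.0568% ± 0.0218 in CTL RV (SD, n = 6 each). Col1a1 took up 0.0605% ± 0.0165 in DAAO LV and 0.0186% ± 0.00751 in CTL LV, and 0.103% ± 0.0470 in DAAO RV and 0.0244% ± 0.00960 in CTL RV (SD, n = 6 each). After scaling all libraries to a common total, the log2 fold changes of Col1a1 and Col3a1 were 1.75 and 1.80 in the left and 2.09 and 2.21 in the right ventricle. Under that scaling the median over all genes tested was 0.21 in the left and 0.27 in the right ventricle, against 0.01 and 0.02 as deposited.

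Against the background of all genes, a call alone is common in these hearts. In the limma fit 37.3% of the 14041 genes tested in the left ventricle were called, 17.3% as higher in DAAO, and 26.5% of the 13489 genes tested in the right ventricle were called, 12.5% as higher. A call with a rise of at least 2-fold was rarer, at 3.98% of genes in the left and 3.9% in the right ventricle. Genes that rose as much without a call are not in these shares. Both covered collagens were called with such a rise in both ventricles. All 6 DAAO libraries lay above all 6 CTL libraries for 7.58% of genes in the left and 4.46% in the right ventricle. In order of log2 fold change, Col3a1 and Col1a1 ranked 313th and 335th in the left ventricle and 206th and 242nd in the right. Among abundant genes, with a mean of at least 5000 (a limit set after the values were seen), 19.7% were called higher in the left ventricle and 10.8% in the right. Calls with a rise of at least 2-fold made up 19 of 436 (4.36%) in the left and 17 of 352 (4.83%) in the right.

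**Figure D2:**
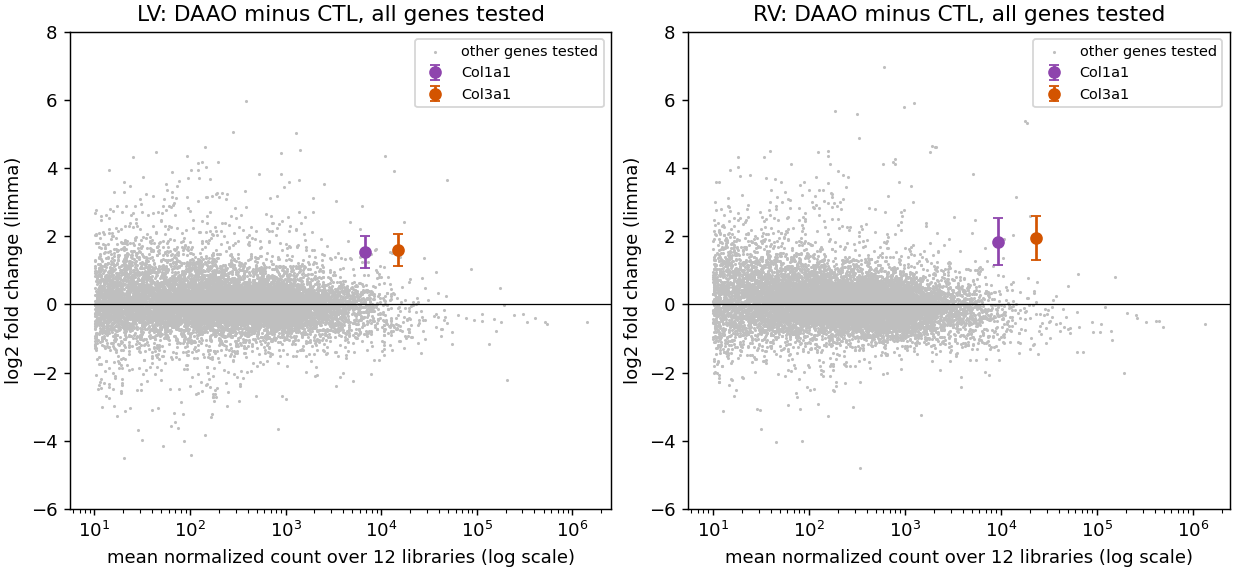
Log2 fold change (DAAO minus CTL, limma) against the mean normalized count over 12 libraries on a log axis, for all genes tested in LV (left panel) and RV (right panel). Grey points are other genes and coloured points are Col1a1 and Col3a1 with 95% confidence intervals, which lie above a log2 fold change of 1 in both ventricles.

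The control animals C_7000 and C_7005 lay toward the upper end of CTL for these genes. C_7005 was the highest CTL animal for both genes in both ventricles, and its Col1a1 was 1.50-fold the CTL mean in the left and 1.39-fold in the right ventricle. C_7000 stood at 1.09-fold and 1.29-fold. Without this pair, the log2 fold changes of Col1a1 were 1.77 in the left and 2.11 in the right ventricle (limma adjusted p = 4.41e-05 and 0.00125). Those of Col3a1 were 1.80 and 2.19 (limma adjusted p = 5.66e-05 and 0.00088). Both genes thus kept their calls, and 24.3% of genes in the left and 15.9% in the right ventricle were called higher in DAAO in the same fits.

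The estimated rise was larger in the right than in the left ventricle for both genes, but the difference was within the error. The log2 effect in the left minus that in the right ventricle was -0.29 for Col1a1 (95% confidence interval -1.15 to 0.57, limma adjusted p = 0.798). For Col3a1 it was -0.36 (95% confidence interval -1.18 to 0.45, limma adjusted p = 0.707). Of 13344 genes tested for this difference, 2.93% were called. With the animal as a block 8.03% were called, and the intervals narrowed to -0.85 to 0.27 for Col1a1 and -0.95 to 0.22 for Col3a1 (limma adjusted p = 0.532 and 0.441). That fit pairs libraries by number, and the pairing of C_7118, C_7120 and C_7123 is doubtful, as described below.

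Single animals set much of the spread. In the right ventricle D_7135 reached 5.73-fold the CTL mean for Col1a1 and 6.30-fold for Col3a1, while in the left ventricle it stood at 2.97-fold and 2.81-fold. D_7143 was the highest DAAO animal in the left ventricle, at 3.68-fold for Col1a1 and 4.04-fold for Col3a1, and D_7137 was the lowest in both ventricles, between 1.82-fold and 2.16-fold. Among the controls, C_7118 was lowest in the right ventricle, at 0.348 of the CTL mean for Col1a1 and 0.436 for Col3a1, and C_7120 was lowest in the left, at 0.522 and 0.557. The coefficient of variation of a group ran from 20.6% (Col1a1 in DAAO LV) to 38.1% (Col1a1 in DAAO RV), well above the counting error. Leaving out each animal in turn kept the log2 fold change of Col1a1 between 1.38 and 1.68 in the left and between 1.56 and 2.01 in the right ventricle. For Col3a1 the ranges were 1.45 to 1.71 and 1.74 to 2.12, and both genes were called each time. In the left ventricle these fits called from 2040 of 14041 genes (without C_7118) to 3273 of 14014 (without C_7005) higher in DAAO. In the right they called from 1169 of 13465 (without D_7138) to 2162 of 13485 (without C_7005) higher.

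Within each group, libraries high in Col1a1 were also high in Col3a1. On log2 values the Pearson r was 0.920 in DAAO LV and 0.981 in CTL LV (n = 6 each; exact permutation p = 0.0111 and 0.00556, Benjamini-Hochberg adjusted p = 0.0370 and 0.0278 over 10 relations). In DAAO RV it was 0.985 and in CTL RV 0.933 (n = 6 each; exact permutation p = 0.0167 and 0.00278, adjusted p = 0.0417 and 0.0278). Spearman's rho was 0.943 in DAAO LV and 0.943 in CTL LV, and 0.771 in DAAO RV and 1 in CTL RV, with exact permutation p of 0.0167, 0.0167, 0.103 and 0.00278 (n = 6 each). Adjusted over the 10 relations these were 0.0556, 0.0556, 0.171 and 0.0278, so by rank only the CTL RV relation passed the threshold of 0.05. Without the 2 libraries farthest from the median of Col1a1 the Pearson r was 0.706 in DAAO LV, 0.992 in CTL LV, 0.886 in DAAO RV and 0.842 in CTL RV.

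**Figure D3:**
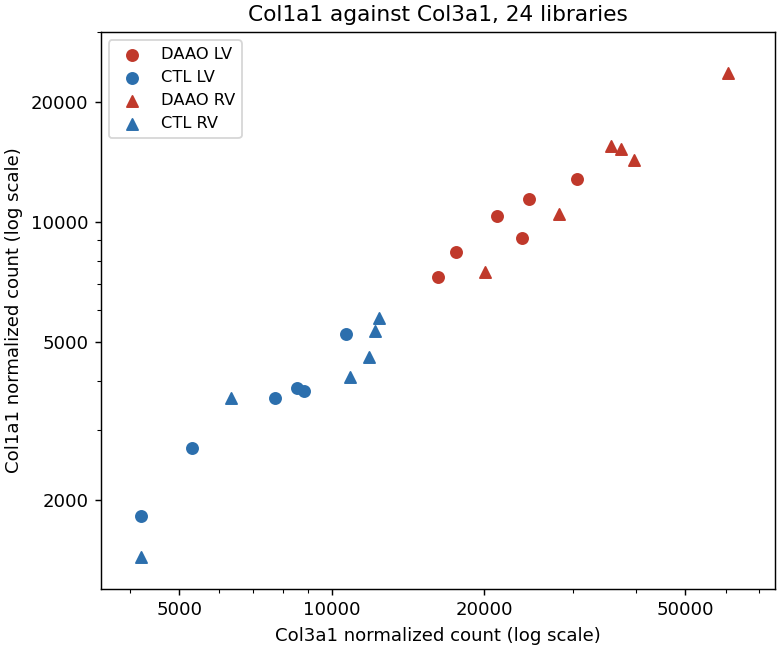
Col1a1 against Col3a1 normalized counts of the 24 libraries, both axes log scaled; circles are LV and triangles RV, red DAAO and blue CTL. The points follow a single band, with all CTL libraries at the lower left and all DAAO libraries at the upper right.

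The levels in the left and right ventricle of the same animal number were compared in the same way. For Col1a1 the Pearson r between LV and RV libraries of the same number was 0.667 in DAAO and 0.453 in CTL (n = 6 each, exact permutation p = 0.147 and 0.378). For Col3a1 it was 0.296 in DAAO and 0.431 in CTL (n = 6 each, exact permutation p = 0.597 and 0.356). The CTL values include 3 animals whose pairing is doubtful (C_7118, C_7120 and C_7123). None passed the threshold, at adjusted p values from 0.294 to 0.747, and Spearman's rho ran from 0.143 to 0.829, with adjusted p values from 0.146 to 1. Without the 2 farthest animals the Pearson r ranged from -0.372 (Col3a1 in DAAO) to 0.992 (Col1a1 in CTL), so these values rest on few animals.

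Over all libraries, Col1a1 and Col3a1 were each other's most similar transcript. With each ventricle's table centred on its own mean, their log2 values had a Pearson r of 0.988 over 24 libraries, the highest of any gene for either collagen among the 13344 genes tested in both tables. This value includes the group difference; on deviations from the 4 group means the r was 0.955, still first in rank for both. Another 63 genes had a median r above 0.9 with this pair. The count also includes the group difference. The closest of them was ENSRNOG00000007302, with r of 0.978 to Col1a1 and 0.976 to Col3a1, or 0.912 and 0.894 on deviations from the group means. It averaged 7007 ± 1198 in DAAO LV and 2021 ± 779 in CTL LV, and 8196 ± 4688 in DAAO RV and 1757 ± 514 in CTL RV (SD, n = 6 each). The next was ENSRNOG00000016695, with r of 0.965 and 0.970 (0.860 and 0.873 on deviations), at 4084 ± 258 in DAAO LV and 2247 ± 383 in CTL LV, and 4865 ± 965 in DAAO RV and 2528 ± 672 in CTL RV (SD, n = 6 each). Neither identifier has a symbol in the files or the reference.

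The balance of type I to type III was read from the ratio of Col1a1 to Col3a1 within each library, which does not depend on the scaling. The ratio is in normalized counts that are not divided by transcript length, so differences between groups are read and not the level itself. It ran from 0.385 to 0.490 (median 0.457) in DAAO LV and from 0.428 to 0.510 (median 0.457) in CTL LV. In the right ventricle it ran from 0.362 to 0.437 (median 0.382) in DAAO and from 0.342 to 0.572 (median 0.412) in CTL. The groups overlapped in both ventricles.

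No change of this ratio with DAAO passed the test. The ratio in DAAO was 0.968-fold that in CTL in the left ventricle (95% interval 0.869 to 1.07, two-sided exact permutation p = 0.494, n = 6 each). In the right ventricle it was 0.920-fold (95% interval 0.768 to 1.09, two-sided exact permutation p = 0.340, n = 6 each), and the adjusted p over these 2 comparisons was 0.494 for both. The intervals were found by inverting the same test. On the log2 scale the SD of the ratio was 0.13 in DAAO LV and 0.10 in CTL LV, where that of Col1a1 itself was 0.30 and 0.52. In the right ventricle the ratio had an SD of 0.10 in DAAO and a wider 0.26 in CTL, where that of Col1a1 was 0.56 and 0.73.

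The ratio can also be set across the separately scaled tables, but only the scaling drops out. Other differences between LV and RV libraries remain. Genes with a read numbered 18088 to 18871 in DAAO LV and 16479 to 17828 in DAAO RV libraries. In CTL they numbered 17511 to 19150 and 15679 to 16823. Whether this bears on the ratio was not tested. The ratio was higher in the left than in the right ventricle in all 6 DAAO animals. There it was 1.15-fold as high in the left ventricle (95% interval 1.03 to 1.32, two-sided exact sign-flip permutation p = 0.0312, the smallest that 6 pairs can give). Adjusted over 2 comparisons the p was 0.0625 and missed the threshold. In CTL it was higher in the left ventricle in 5 of 6 animals, by 1.09-fold on average (95% interval 0.817 to 1.48, exact permutation p = 0.375, n = 6). The exception was C_7123, at 0.466 in the left and 0.572 in the right ventricle, while C_7118 had the highest CTL LV ratio (0.510) and the lowest CTL RV ratio (0.342). The pairing of these 2 animals and of C_7120 is doubtful: over all genes, their LV and RV libraries correlated at r of 0.254 (C_7123), 0.0601 (C_7118) and 0.0567 (C_7120) in deviations from the group means. Each of the 3 matched the RV library of another CTL animal better, whereas the 6 DAAO animals matched their own best. For C_7123 the margin was small, at r of 0.264 with C_7120. For C_7118 the best r was 0.499 (with C_7123), and for C_7120 it was 0.286 (with C_7118). The paired CTL values therefore rest on pairs of which 3 of 6 are uncertain. Across animals, no relation between the left and right ratios passed the threshold (Spearman rho 0.0286 in DAAO and 0.0286 in CTL, exact permutation p = 1 for both; Pearson r 0.120 and 0.00865, exact permutation p = 0.844 and 0.961, adjusted p = 0.938 and 0.961, n = 6 each). Without the 2 farthest animals the Pearson r was -0.0400 in DAAO and 0.967 in CTL. The left to right difference in DAAO did not differ from that in CTL past the threshold (1.05-fold, 95% interval 0.866 to 1.27, two-sided exact permutation p = 0.595, n = 6 each). On the log2 scale this difference was 0.07, turned to -0.0108 without C_7123 and was 0.16 without C_7118.

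**Figure D4:**
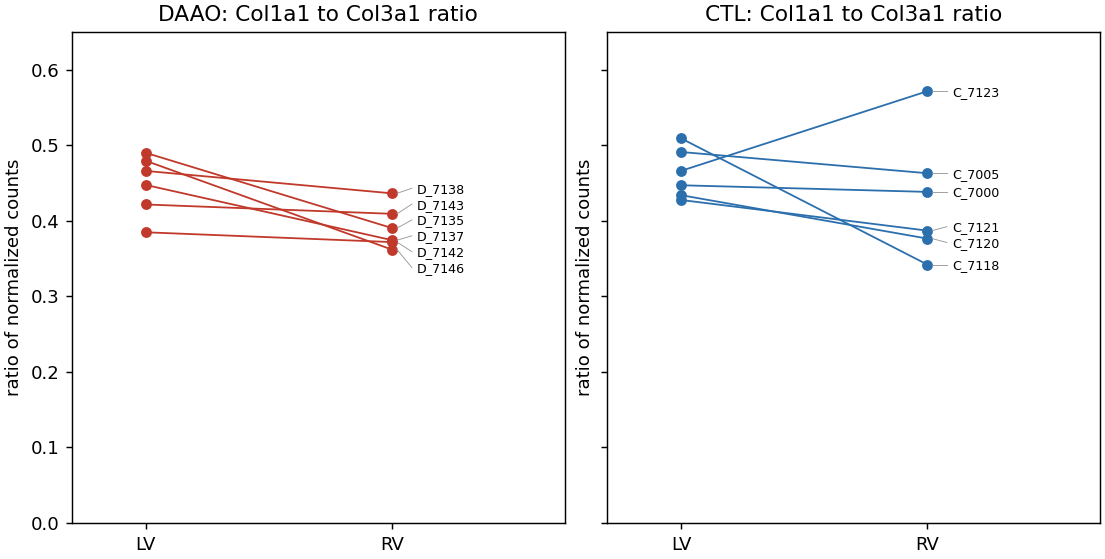
Ratio of Col1a1 to Col3a1 normalized counts in the LV and RV libraries of each animal number, DAAO in the left panel and CTL in the right, on an axis that starts at 0; lines join libraries of the same number. All 6 DAAO lines run down to the RV, as do 5 of 6 CTL lines, and the CTL RV values spread from 0.342 to 0.572.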

How the data were processed

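Trizol RNA of frozen hearts was sequenced by Novogene in read pairs, per the labels' protocols. The submitters' processing notes name STAR 2.7.0a, FastQC, DESeq2 1.26.0 and Rnor_6.0. For the read counter, annotation and strand setting the entry is: not given in the sources used here, so overlapping genes are uncertain. The authors deposited a normalized count table per ventricle, a signal in which the reads of a gene are divided by the library's size factor. All values above 0 were whole multiples of their library's smallest value (100% within 1e-06), so reads were recovered by division.

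The main test was limma 3.58.1 (R 4.3.3), run two-sided with a mean-variance trend on log2(value + 1) over genes with a mean of at least 10, Benjamini-Hochberg adjusted at 0.05. This scale understates changes of low genes. edgeR 4.0.16 and DESeq2 1.42.0 on recovered reads were alternatives. Ratios were tested over the 924 assignments of 12 libraries, or the 64 sign patterns of 6 pairs. Only the limma fit was tested on simulated data. No label says that numbers are separate rats, so p-values measure the spread between these samples. Deviations of same-numbered libraries correlated across genes with r from 0.0567 to 0.788, above 0.1 for 10 of 12 and highest for the own number in 9 of 12; the pairing rests on the numbers being read as animals.

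The reference (GRCr8) holds no Ensembl number for its 47357 genes and matched 0 of 32883 identifiers, so fixed lists of collagen processing genes and of cell type markers were not used. The members and lists were chosen with earlier results of these data known. Named genes were the members and the 2 genes most like them. The planned type I level, the mean of both chains, was replaced after the data were seen by Col1a1 alone.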

Additional observations from a re-analysis of the deposited data

How the results depend on the processing

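The rises of Col1a1 and Col3a1 kept their direction in both ventricles under all 88 alternatives run, and their call wherever an adjusted p was computed. The alternatives were other pseudocounts (0.5 and 5), filters, equal totals, robust variances, edgeR, DESeq2 and an exact permutation test. Fits without C_7000 and C_7005 and without each animal were also among them. A call as higher was common under some of these settings. With equal totals it was made for 4325 of 14041 genes in the left and 3802 of 13489 in the right ventricle. In the main fit it was made for 2430 and 1684. The exact permutation p was 0.00216 for each rise, the smallest possible, and was not adjusted over genes. Log2 fold changes of both genes under these settings lay between 1.38 and 1.80 (left ventricle) and between 1.56 and 2.21 (right ventricle). For the ventricle difference of both genes no alternative gave a call; with the replicate block the values were -0.29 and -0.36, as without it. Without single animals they ranged from -0.48 to -0.07 for Col1a1 and from -0.57 to -0.19 for Col3a1.

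The Col1a1 to Col3a1 log2 ratio, DAAO minus CTL, lay without single animals between -0.074 and -0.0042 (left ventricle) and between -0.18 and -0.03 (right ventricle). The left minus right log2 ratio in DAAO, 0.20, passed the threshold without the animal pairing (no replicate block, exact permutation p = 0.0216, adjusted p = 0.0433), where more assignments are possible; without single animals it ranged from 0.15 to 0.23, and 5 pairs cannot go below p = 0.0625. In CTL it ranged from 0.03 to 0.21. The difference between these, 0.07, turned to -0.0108 without C_7123 and ranged up to 0.16; the cause was not tested. Adding ENSRNOG00000011292 to Col1a1 left every ratio result on its side of the threshold. With 7 reads in all libraries it could hardly move them, so this is no check of the ratio. ENSRNOG00000011292 was fitted only with no filter on low values in the left ventricle, where it was not called (limma adjusted p = 0.851); both groups lie at or under the floor of 3 reads, so no fold is given, and its ratio to Col1a1 was not run.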
